A study of Rattus norvegicus with 6 samples.

Results

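Oxidative phosphorylation, the process by which mitochondria turn nutrients into ATP, was described here through 110 of the 22250 rat genes in the deposited expression table. The members were the genes that the table assigned to the KEGG oxidative phosphorylation pathway together with all genes on the mitochondrial chromosome, and 21 genes of the vacuolar proton pump whose names begin with Atp6v were left out. Of the 110 members, 13 lay on the mitochondrial (MT) genome and 97 in the nucleus. The nuclear members comprised 80 subunits (34 of complex I, 4 of complex II, 8 of complex III, 20 of complex IV, 13 of complex V, and cytochrome c), 6 unnamed loci annotated like a subunit, 4 assembly factors of complex IV, and 7 genes of proton pumps or pyrophosphatases that are no part of the respiratory chain. RNA had been sequenced from the left ventricular myocardium of 3 young donor hearts (10 weeks old, hearts 3, 13 and 15) and 3 aged donor hearts (1 year old, hearts 3, 4 and 7), numbered separately in the labels. Both groups were male Sprague-Dawley rats of WT genotype whose hearts had been kept cold in University of Wisconsin solution, transplanted heterotopically into young recipients, and collected on postoperative day 1. Heart numbers count within each group, so young heart 3 and aged heart 3 are different animals. Because every heart had been stored and transplanted, the comparison asks how aged and young grafts differ and not what aging does alone.

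The respiratory chain passes electrons from NADH (complex I) and succinate (complex II) through ubiquinone, complex III and cytochrome c to oxygen at complex IV, and complexes I, III and IV pump protons whose return through complex V, the ATP synthase, makes ATP. Complexes I, III, IV and V are built from subunits of both genomes, those of the MT genome forming part of their membrane cores, whereas complex II is entirely nuclear. The beating heart relies on this system for most of its ATP, and cardiomyocytes are densely filled with mitochondria.

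Each library held 21457509 to 24560869 counted reads, and TMM scaling (edgeR's trimmed mean of M values) gave the levels written here as CPM, the reads of a gene per 1e6 scaled reads. A pair of hearts stood apart from their groups before any comparison. The summed level of 10 cardiomyocyte markers was 86280 and 95849 CPM in young hearts 3 and 13 but 13059 CPM in young heart 15. It was 7764 and 6669 CPM in aged hearts 4 and 7 but 176 CPM in aged heart 3. The 10 had a median log2 fold change of -3.17, and 4 were called lower by the limits given below, beside 19.0% of all genes. The myosin heavy chain gene Myh6, which defines ventricular and atrial muscle in the rat, was at 13.6 CPM in aged heart 3 against 515 and 323 CPM in aged hearts 4 and 7, so the labelled tissue was nearly without its defining markers in that library. Neutrophil markers summed to 6.11 to 137 CPM in young and 315 to 1291 CPM in aged hearts. Of 9 tested, with log2 fold changes from 0.52 to 4.42, 8 were called higher, beside 13.2% of all genes. Macrophage markers summed to 324 to 2226 and 3549 to 6851 CPM. Of 8 tested, with log2 fold changes from 0.62 to 2.69, 4 were called higher. In the neutrophil and macrophage lists the highest young heart was heart 15 and the highest aged heart was heart 3. Of the other lists, 0 of 4 T cell, 0 of 4 endothelial and 0 of 2 red blood cell markers tested were called. The T cell sum was 25.4 to 75.9 CPM in young and 86.2 to 131 CPM in aged hearts, also highest in young heart 15 and aged heart 3. Log2 fold changes in that list ran from -0.37 (Cd3g) to 2.08 (Cd8a). Among 4 fibroblast markers 1 was called lower. In bulk tissue, fewer cells of a type and less RNA per cell cannot be told apart, and the part of these cell type markers in the results below was not tested. Counts of members called are therefore also given without 1 or both of these hearts. The lists of assembly, MT RNA and MT DNA genes are given with all 6 hearts only.

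RNA of the respiratory chain was lower in aged than in young donor hearts in both genomes and in all 5 complexes, except when libraries were scaled to the cardiomyocyte markers. A gene was called when its fold change was above 1.5 or below 0.67 with an unadjusted p under 0.05 (edgeR's quasi-likelihood test over all 13784 genes tested), the limits that the study used. Of the 101 members with enough reads to be tested, 83 were called lower and 1 was called higher, whereas 19.0% of all genes tested were called lower and 13.2% higher. All 3 aged hearts lay below all 3 young hearts in 57 of the 101 members, against 20.6% of all genes tested, and above them in 1, against 21.0%. The 83 members called lower had log2 fold changes from -2.70 to -0.71, and their Benjamini-Hochberg adjusted p-values from edgeR ran from 0.0916 to 0.146, so no member, and no gene in the table, passed an adjusted p of 0.05 (0 genes, against 4731, or 34.3%, with an unadjusted p under 0.05). DESeq2 placed 80 members and 26.1% of all genes under that adjusted limit, and limma-voom placed 0 of either.

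The scaling set the size of these differences. With library totals in place of TMM, the median log2 fold change of all genes moved from 0.02 to 0.46, 1441 genes were called lower and 3147 higher (2621 and 1815 under TMM), and 67 members were called lower, beside 10.5% of all genes. With libraries scaled so that the cardiomyocyte markers were equal, the median of all genes moved to 5.94, 1 gene (0.00725%) was called lower and 11328 (82.2%) higher, and 0 members were called lower and 13 higher. Under that scaling the medians of nuclear and MT subunits were 4.13 and 4.38, which turns their direction. That fit kept aged heart 3, whose marker sum was 370-fold below the mean of the young hearts. In aged hearts 4 and 7 it was 8.38-fold and 9.76-fold below. The part of aged heart 3 in these values was not tested. The medians differed from the median of all genes by -1.81 and -1.56, against -1.80 and -1.86 under TMM. A scaling factor moves all genes of a library together, so this distance is largely set in advance and does not test the direction. All log2 fold changes that follow are TMM-scaled.

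The count depended on which hearts were kept. Without young heart 15, 94 members were called lower and 93 had an adjusted p under 0.05 from edgeR, beside 24.2% of all genes called lower and 48.3% with such an adjusted p. Without aged heart 3, 46 members were called lower, beside 14.7%, and without both hearts 97 were, beside 26.2%. The number was 44 without young heart 13 (beside 11.6% of all genes), 47 without young heart 3 (11.5%), 50 without aged heart 7 (13.7%) and 75 without aged heart 4 (15.3%). As to direction, 75 of the 76 nuclear subunits tested had a negative log2 fold change in each of these fits. In 75 of the 76, young hearts 3 and 13 lay above the other 4 hearts. Young heart 15 lay above all aged hearts in 45 of the 76 and inside their range in 31, and aged heart 3 was the lowest of the 6 hearts in 71.

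**Figure D1:**
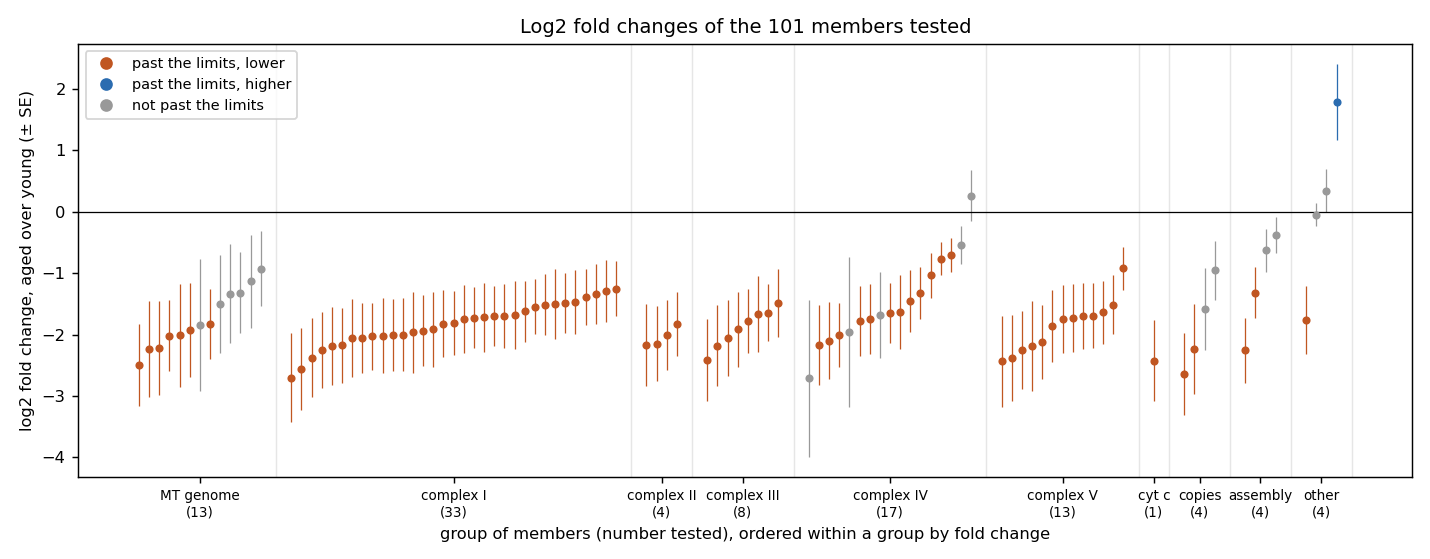
Log2 fold change, aged over young (y axis, bars are the standard error), for the 101 members tested, grouped along the x axis by genome and complex. Under TMM scaling with all 6 hearts, complexes I, II, III and V are called lower throughout, the uncalled nuclear subunits are in complex IV, and 6 of 13 MT genes are uncalled.

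Nuclear and mitochondrial subunits had similar medians, and the difference between them was not tested. The median log2 fold change was -1.78 over the 76 nuclear subunits tested and -1.84 over the 13 MT genes, against 0.02 over all genes tested, and 71 of the 76 and 7 of the 13 were called lower. Nuclear subunits took 3.52, 3.64 and 1.38% of the counts in young hearts 3, 13 and 15 and 0.629, 1.32 and 1.18% in aged hearts 3, 4 and 7. Young heart 15 was thus close to aged heart 4. MT genes took 21.7, 21.7 and 11.9% in the young and 6.56, 7.99 and 10.3% in the aged hearts, where each share has a 95% Wilson interval of at most 0.0174 percentage points to either side for counting error only.

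The MT count per nuclear subunit count, which needs no scaling between libraries, was 6.16, 5.97 and 8.61 in young hearts 3, 13 and 15 and 10.4, 6.04 and 8.71 in aged hearts 3, 4 and 7. The groups overlapped: aged heart 4 was level with young hearts 3 and 13, and young heart 15 was level with aged heart 7. The mean log2 ratio was 2.77 ± 0.29 (SD, n = 3) in young and 3.03 ± 0.40 (SD, n = 3) in aged hearts, a difference of 0.27 that is smaller than either spread. The ratio was highest in the heart with the fewest cardiomyocyte marker reads. Leaving out each heart in turn moved the difference between 0.09 and 0.49. The library preparation selected polyadenylated RNA, so MT levels stand for transcripts carrying a poly-A tail.

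**Figure D2:**
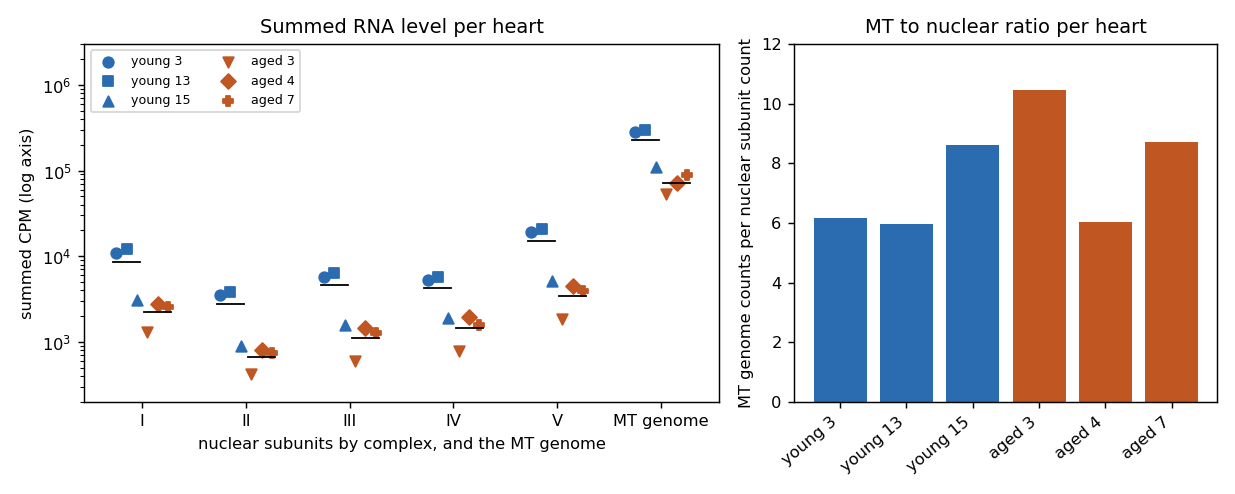
Left, TMM-scaled CPM summed over the nuclear subunits of each complex and over the 13 MT genes (log axis), with 1 point per heart and a line at each group mean. Right, MT genome counts per nuclear subunit count in each heart, from 5.97 to 10.4. Young hearts 3 and 13 stand above the other 4 hearts in every sum, and the ratio does not separate the groups.

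In complex I, which oxidizes NADH, all 33 nuclear subunits tested were called lower (median log2 fold change -1.81). That count was 20 without young heart 3, young heart 13, aged heart 3 or aged heart 7, and it stayed at 33 without young heart 15 or aged heart 4. Of all genes, 11.5, 11.6, 14.7, 13.7, 24.2 and 15.3% were called lower in these fits, in that order. Ndufs1, which carries iron-sulfur clusters of the electron path, had the lowest log2 fold change among the members called lower. It stood at 1359, 1648 and 275 CPM in young hearts 3, 13 and 15 and at 95.1, 199 and 211 CPM in aged hearts 3, 4 and 7. Young heart 15 was above all aged hearts but nearer to them than to the other young hearts, and the log2 fold change was -2.70 ± 0.72 (SE, edgeR adjusted p = 0.0916). Ndufs3, another core subunit of the peripheral arm, was at 360.4, 380.2 and 65.8 CPM in the young and 30.7, 55.0 and 50.8 CPM in the aged hearts. Its groups did not overlap, and its log2 fold change was -2.56 ± 0.67 (SE). Ndufs7, which holds the last cluster before ubiquinone, was at 421, 478 and 88.8 CPM and 41.3, 79.8 and 69.1 CPM in the same order of hearts, with a log2 fold change of -2.38 ± 0.65 (SE).

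Further nuclear core subunits of complex I moved in the same direction. Ndufv1, which binds NADH and flavin, averaged 787 ± 438 CPM (SD, n = 3) in young and 202 ± 102 CPM (SD, n = 3) in aged hearts, with a log2 fold change of -1.96 ± 0.66 (SE). Ndufv2, its partner in the NADH module, had a log2 fold change of -2.19 ± 0.63 (SE), and Ndufs8 of -2.02 ± 0.62. For Ndufs8 the groups overlapped, since aged heart 4 (78.9 CPM) was above young heart 15 (73.7 CPM). The median log2 fold change was -2.19 over the 7 nuclear core subunits and -1.71 over the 26 accessory subunits tested, which surround the core without carrying electrons. No overlap between the groups was seen in 6 of the 7 core and 14 of the 26 accessory subunits. Of the accessory subunits, Ndufa9 was lowest, at -2.25 ± 0.61 (SE), and Ndufb6 nearest to 0, at -1.25 ± 0.45 (SE).

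Complex II, succinate dehydrogenase, which also works in the citric acid cycle, was the only complex whose aged and young hearts did not overlap in any tested nuclear subunit, and all 4 were called lower with a median log2 fold change of -2.08. Sdha, the flavin subunit that oxidizes succinate, was at 1468, 1691 and 372 CPM in young hearts 3, 13 and 15 and 135, 325 and 324 CPM in aged hearts 3, 4 and 7. Aged heart 3 was the lowest, and aged hearts 4 and 7 were close to young heart 15. The log2 fold change was -2.17 ± 0.66 (SE) for Sdha, -2.15 ± 0.61 for the membrane anchor Sdhd, -2.0 ± 0.57 for the iron-sulfur subunit Sdhb and -1.82 ± 0.52 for the anchor Sdhc. The 4 genes were called lower in each of the 6 fits that left out 1 heart, beside 11.5 to 24.2% of all genes.

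In complex III, which passes electrons from ubiquinol to cytochrome c, all 8 nuclear subunits were called lower (median log2 fold change -1.85), and the groups did not overlap in 5. The count was 5 without young heart 13, aged heart 3 or aged heart 7 and 6 without young heart 3. Of all genes, 11.6, 14.7, 13.7 and 11.5% were called lower in these fits, in that order. Uqcrc2, a core protein of the complex, was at 1247, 1429 and 315 CPM in the young and 95.5, 222 and 246 CPM in the aged hearts, with a log2 fold change of -2.41 ± 0.67 (SE). The catalytic subunits Cyc1 (cytochrome c1) and Uqcrfs1 (the Rieske iron-sulfur protein) had log2 fold changes of -2.18 ± 0.66 and -2.06 ± 0.62 (SE), and for Cyc1 aged heart 4, at 262 CPM, overlapped young heart 15, at 260.3 CPM. Uqcrc1 had a log2 fold change of -1.91 ± 0.61 (SE), and the small subunit Uqcr11 was nearest to 0, at -1.48 ± 0.55 (SE). Cycs, the cytochrome c that carries electrons onward to complex IV, was at 1037, 1061 and 189 CPM in the young and 113, 135 and 178 CPM in the aged hearts. Its groups did not overlap, and the log2 fold change was -2.42 ± 0.66 (SE, edgeR adjusted p = 0.0920).

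In complex IV, cytochrome c oxidase, 12 of the 17 nuclear subunits tested were called lower, and its median log2 fold change of -1.65 was the nearest to 0 of the 5. This count depended on the hearts kept: 16 of the 17 were called without young heart 15 and aged heart 3 (beside 26.2% of all genes). It was 14 without young heart 15 alone (24.2%) and 7 without aged heart 3 (14.7%) or aged heart 7 (13.7%). It was 4 without young heart 3 (11.5%) or young heart 13 (11.6%). Under cardiomyocyte marker scaling that order of medians did not hold. Complex IV then differed from the median of all genes by -1.91, against -1.78 for complex I. That scaling kept aged heart 3, whose marker sum was 41.1-fold below the mean of aged hearts 4 and 7. The part of that heart in the order was not tested. Cox4i1, the usual form of subunit 4, which contacts the catalytic core, was at 1421, 1509 and 469.9 CPM in young hearts 3, 13 and 15 and 177, 523 and 394 CPM in aged hearts 3, 4 and 7. Aged heart 4 was above young heart 15, so the groups overlapped, and the log2 fold change was -1.64 ± 0.60 (SE). Cox5a had a log2 fold change of -1.78 ± 0.57 (SE), and Cox5b, at -1.68 ± 0.71 (SE), missed the call (edgeR, unadjusted p = 0.0520, adjusted p = 0.148). Of the subunits called lower, Cox7b was the lowest, at -2.17 ± 0.65 (SE). Cox8a and Cox7a2l were called with smaller differences, at -0.71 ± 0.28 and -0.76 ± 0.27 (SE).

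Complex V makes ATP from the proton gradient, and all 13 of its nuclear subunits were called lower (median log2 fold change -1.75), although the groups overlapped in 8. Only 3 of the 13 were called without aged heart 3 (beside 14.7% of all genes) and 5 without young heart 13 (11.6%). The count was 6 without young heart 3 (11.5%) or aged heart 7 (13.7%). Atp5f1b, the catalytic beta subunit and the most abundant nuclear member in CPM, was at 8161, 8776 and 2419 CPM in the young and 623, 1940.3 and 1696 CPM in the aged hearts. The level in aged heart 3 was below those of aged hearts 4 and 7, and the log2 fold change was -2.18 ± 0.74 (SE). Atp5f1a, the alpha subunit, had a log2 fold change of -2.44 ± 0.75 (SE). The gamma subunit gene Atp5f1c was not assigned to the pathway in the table and is no member. The c subunits that form the rotating ring are made from 3 genes that encode the same mature protein, and these differed in RNA. Atp5mc1 and Atp5mc3 had log2 fold changes of -2.38 ± 0.70 and -2.25 ± 0.63 (SE), while Atp5mc2 was at 269.5, 282 and 131 CPM in the young and 99.3, 149 and 112 CPM in the aged hearts. For Atp5mc2 young heart 15 lay inside the aged range, and its log2 fold change of -0.92 ± 0.35 (SE) was the nearest to 0 of the tested nuclear subunits of complex V.

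The share of each complex in the nuclear subunit counts of a heart is free of scaling, and for 2 of them the groups did not overlap. The shares are parts of the same total, so a rise in 1 complex and a fall in another are not separate results. Among single genes, CPM did not overlap in 20.6% of all genes tested with aged lower and in 21.0% with aged higher. Complex IV made up 11.6, 11.4 and 14.8% of these counts in young hearts 3, 13 and 15 and 15.3, 16.8 and 15.3% in aged hearts 3, 4 and 7. Complex V made up 41.9, 41.6 and 40.4% in the young and 36.7, 38.7 and 38.1% in the aged hearts. For each of these, young heart 15 was the young heart nearest to the aged ones, and the group means were 12.6 ± 1.91 against 15.8 ± 0.878% (SD, n = 3) for complex IV and 41.3 ± 0.819 against 37.8 ± 1.03% (SD, n = 3) for complex V. Complexes I, II and III overlapped, with means of 24.0 and 24.8% for complex I, 7.51 and 7.51% for complex II, and 12.6 and 12.3% for complex III in young and aged hearts. Summed CPM was 3.92-fold lower in aged hearts for complex I, 4.20-fold for complex II, 4.08-fold for complex III, 2.98-fold for complex IV and 4.37-fold for complex V. Complex IV was the only sum of the 5 in which the groups overlapped, because young heart 15 (1880 CPM) was below aged heart 4 (1970 CPM). Across the 76 nuclear subunits, log2 fold change ran with the length used for FPKM at a Spearman rho of -0.41. Genes of greater listed length were lower. Across all genes tested rho was -0.04, and both values describe genes that share the same 6 libraries.

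**Figure D3:**
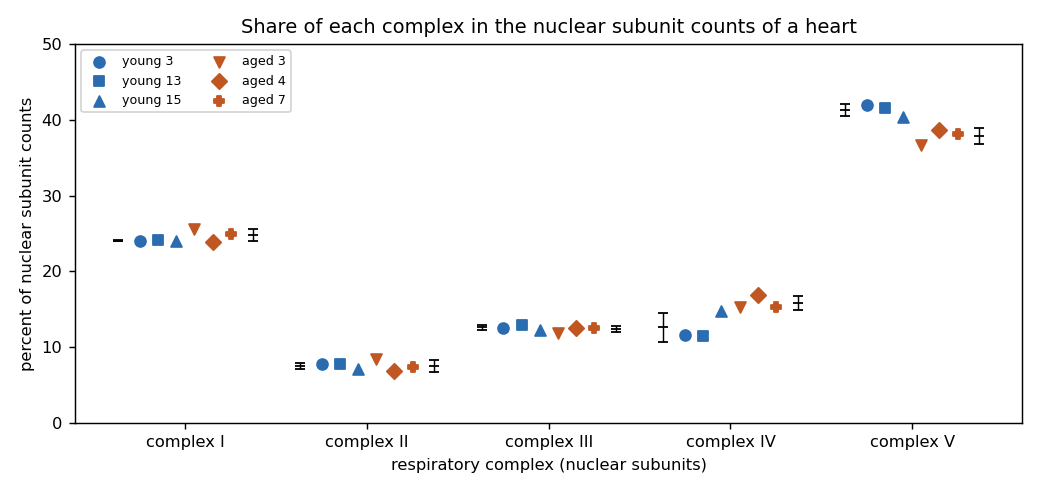
Share of each complex in the nuclear subunit counts (y axis, percent) with 1 point per heart, and the mean ± SD (n = 3) of young hearts to the left and of aged hearts to the right of the points. The aged hearts lie above the young in complex IV (15.3 to 16.8 against 11.4 to 14.8%) and below them in complex V (36.7 to 38.7 against 40.4 to 41.9%). These shares are parts of the same total and not separate results.

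The 13 MT genes all had negative log2 fold changes, and 7 were called lower: Mt-nd6, Mt-nd5, Mt-co2, Mt-nd3, Mt-nd4, Mt-cyb and Mt-nd4l. The number called was 2 of 13 without aged heart 4, a share near the 15.3% of all genes called lower in that fit. It was 3 without young heart 3 (beside 11.5% of all genes) or young heart 13 (11.6%). It was 4 without aged heart 3 (14.7%) or aged heart 7 (13.7%), and 11 without young heart 15 (24.2%). Without young heart 15 and aged heart 3 it was 12 (26.2%). In complex I, Mt-nd5, a proton-pumping membrane subunit, was at 18000.2, 18794 and 5890.3 CPM in young hearts 3, 13 and 15 and 1531, 2913 and 4649 CPM in aged hearts 3, 4 and 7. Its groups did not overlap, and the log2 fold change was -2.23 ± 0.78 (SE). Mt-nd4, another membrane subunit, was at 1031, 1247 and 104 CPM in the young and 231, 212 and 146 CPM in the aged hearts, so young heart 15 was below all 3 aged hearts, and its log2 fold change was -2.01 ± 0.83 (SE, edgeR adjusted p = 0.146). Mt-nd1 and Mt-nd2, at -1.33 ± 0.80 and -1.13 ± 0.76 (SE), were not called, and in each of them aged heart 7 was above young heart 15. In complex IV, the catalytic subunit Mt-co1 was the most abundant member of all in CPM, at 90406, 100230.4 and 35047 CPM in the young and 11879, 25512 and 25432 CPM in the aged hearts. These groups did not overlap, but the difference of -1.84 ± 1.08 (SE) was not called (edgeR, unadjusted p = 0.135, adjusted p = 0.250). Mt-co2, which takes electrons from cytochrome c, had a log2 fold change of -2.22 ± 0.77 (SE) and was called, and Mt-co3 had -1.51 ± 0.79 and was not. Mt-cyb, the cytochrome b of complex III, had a log2 fold change of -1.92 ± 0.77 (SE). Mt-atp6, a subunit of the proton channel of complex V, had -1.32 ± 0.66 (SE) and was not called, although its aged hearts all lay below its young hearts.

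The balance among the MT genes moved less than their sum. Mt-co1 was 32.1, 33.9 and 32.1% of the MT counts in young hearts 3, 13 and 15 and 22.4, 36.1 and 28.6% in aged hearts 3, 4 and 7. The share overlapped between the groups for 8 of the 13 genes. It was higher in all aged hearts for Mt-nd1 and Mt-atp6 and lower in all aged hearts for Mt-nd3, Mt-nd5 and Mt-nd6. Across all genes tested, CPM did not overlap in 20.6% with aged lower and in 21.0% with aged higher. So many separations are thus common among genes at large, and they are not read as a result about these genes. Mt-nd6, the protein gene of the light strand, was 0.320, 0.266 and 0.241% in the young and 0.182, 0.0724 and 0.223% in the aged hearts. The log2 ratio of Mt-nd6 to the other MT genes was 0.93 lower in aged hearts (-9.44 ± 0.87 against -8.51 ± 0.21, SD, n = 3, exact two-sided permutation test, p = 0.1, the smallest that 3 against 3 hearts can give). Aged minus young, this difference was -0.44 without aged heart 4 and -1.25 without aged heart 7. The libraries were selected for poly-A tails, and how far Mt-nd6 RNA carries such a tail was not examined. Mt-nd6 also shares 23 bases with Mt-nd5 on the other strand, and the sources used here do not state whether counting used strand. Its level and the ratio are therefore uncertain. Overlaps of 43 bases between Mt-atp8 and Mt-atp6 and of 7 between Mt-nd4l and Mt-nd4 add to this, and per length Mt-atp8 and Mt-nd4 averaged 5.13 and 440 FPKM in young hearts against 39087 for Mt-co1, so their values are uncertain too.

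**Figure D4:**
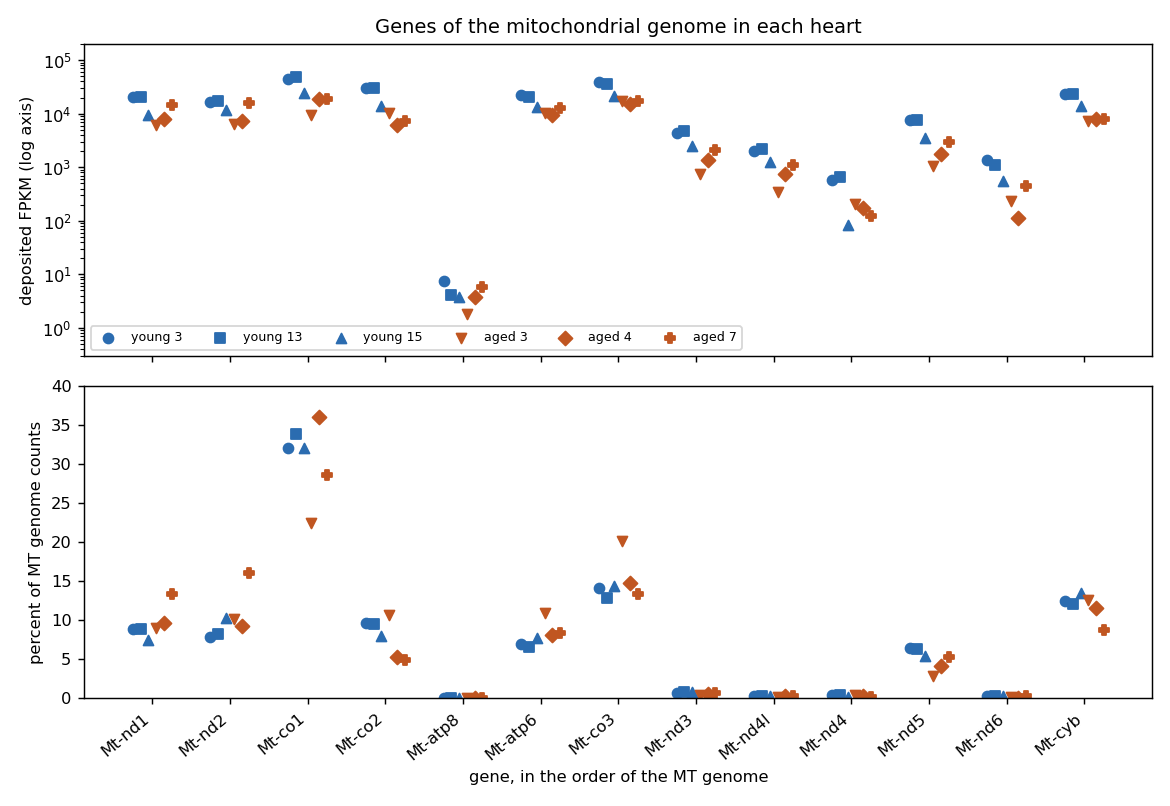
The 13 MT genes in genome order (x axis), with the deposited FPKM on a log axis above and the percent of MT counts below, 1 point per heart. FPKM is lowest for Mt-atp8, and the shares of Mt-co1 spread from 22.4 to 36.1% among aged hearts.

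Complex IV holds pairs of related subunits, of which a form used in muscle or under low oxygen stands beside a form used more widely. Cox6a2, the heart and skeletal muscle form of subunit 6A, was at 794, 847 and 277 CPM in young hearts 3, 13 and 15 and 4.53, 257 and 232 CPM in aged hearts 3, 4 and 7. Its widely expressed counterpart Cox6a1 was at 231, 259.6 and 149 CPM in the young and 131, 193 and 115 CPM in the aged hearts. Aged heart 3 was thus far below every other heart in the muscle form and inside the range of the aged hearts in the other. The subunit 8 pair gave the same order: the muscle form Cox8b was at 174, 188 and 38.6 CPM in the young and 0.558, 30.9 and 29.7 CPM in the aged hearts, and Cox8a at 134, 127 and 74.6 and 64.7, 81.9 and 59.0 CPM. Neither Cox6a2 (log2 fold change -1.96 ± 1.23, SE, edgeR adjusted p = 0.276) nor Cox8b (-2.71 ± 1.28, SE, adjusted p = 0.179) was called, although in each all aged hearts were below all young hearts. Without aged heart 3 the log2 fold changes were -1.38 for Cox6a2, which was not called, and -2.13 for Cox8b, which was. Without young heart 15 and aged heart 3 both were called, at -1.71 ± 0.15 for Cox6a2 and -2.54 ± 0.14 for Cox8b (SE).

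Aged heart 3 was 53.8-fold below the mean of aged hearts 4 and 7 in Cox6a2 and 54.3-fold below it in Cox8b, and 41.1-fold below it in the cardiomyocyte marker sum. For the other 74 nuclear subunits tested, the fold between the same hearts ran from 0.917 to 3.59, and its median over all 76 was 2.02. The MT sum was 1.51-fold lower in aged heart 3. Cox6a1, Cox8a and Cox7a2l were 1.18-fold, 1.09-fold and 1.05-fold lower there. The source of the remaining subunit reads in this library was not tested. Young heart 15 was 6.97-fold below the mean of the other young hearts in the marker sum and 3.75-fold below it in the nuclear subunit sum.

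The ratio of muscle to widely expressed form within a heart needs no scaling. The log2 ratio of Cox8b to Cox8a was 0.37, 0.57 and -0.95 in young hearts 3, 13 and 15 and -6.82, -1.41 and -0.99 in aged hearts 3, 4 and 7, without overlap (difference -3.07, exact two-sided permutation test, p = 0.1, the smallest possible, 0.267 adjusted over 4 pairs). For Cox6a2 to Cox6a1 it was 1.78, 1.71 and 0.89 in the young and -4.85, 0.41 and 1.00 in the aged hearts, which overlapped (difference -2.61, exact p = 0.2, adjusted 0.267). Both differences were set largely by aged heart 3, and without it they were -1.20 and -0.75. Ratios of the forms linked to low oxygen went the other way without separating the groups: the difference was 0.58 for Cox4i2 to Cox4i1 (exact p = 0.2, adjusted 0.267) and 0.67 for Ndufa4l2 to Ndufa4 (exact p = 0.3, adjusted 0.3). As TMM-scaled levels, Cox4i2 and Ndufa4l2 were themselves called lower, at -1.04 ± 0.37 and -1.32 ± 0.43 (SE). A planned ratio of Cox7a1, the muscle form of subunit 7A, could not be computed, since the table lists 0 to 3 reads for Cox7a1 in each heart and no member is named Cox7a2.

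**Figure D5:**
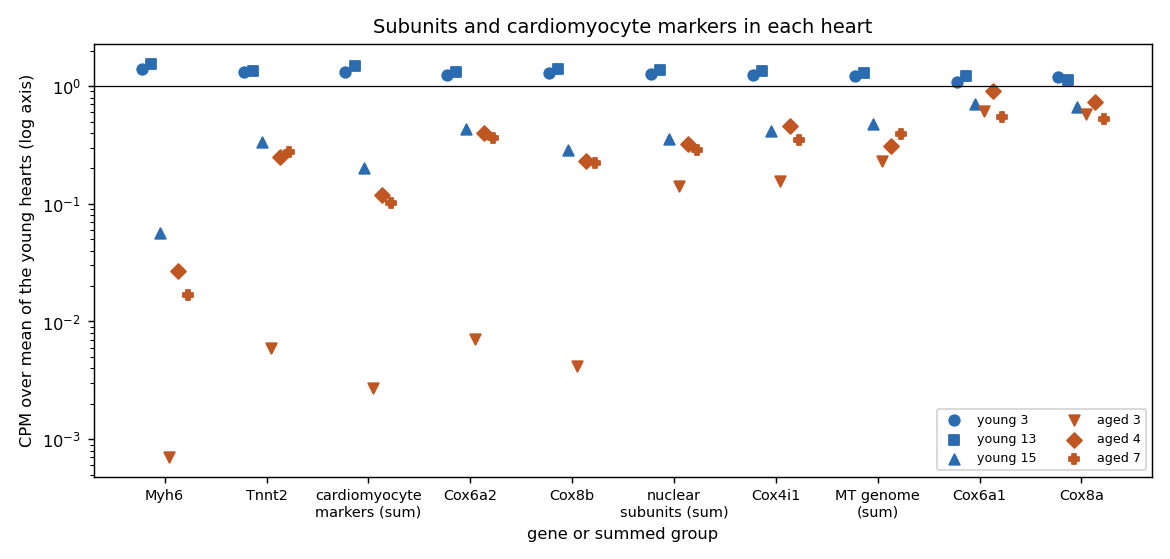
Level of each gene or summed group in each heart, as CPM over the mean of the 3 young hearts (log axis). Aged heart 3 falls with the cardiomyocyte markers in Cox6a2 and Cox8b, but lies close to the other aged hearts in Cox6a1, Cox8a and the MT sum.

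Genes that build the complexes were called lower in part, with all 6 hearts kept. No fit without a heart was read for these lists or for the MT RNA and MT DNA lists below. These lists, read against 19.0% of all genes called lower and 13.2% called higher, held 7 of 14 tested assembly factors of complex I called lower, 2 of 3 of complex II, 3 of 6 of complex III, 5 of 19 (26.3%) of complex IV and 4 of 5 of complex V, with 0 called higher. The lowest were Ecsit of complex I at -2.12 ± 0.59, Lyrm7 of complex III at -2.11 ± 0.43, Cox10 of complex IV at -2.26 ± 0.53 and Tmem70 of complex V at -1.98 ± 0.49 (log2 fold change ± SE). Cox10 and Cox15, which make heme A for complex IV, are themselves members and were called, at -2.26 ± 0.53 and -1.32 ± 0.42. The members Cox11 and Cox17, which deliver copper to it, were not called, at -0.38 ± 0.29 and -0.63 ± 0.34. Atp5if1, the inhibitor of ATP synthase, was at -0.04 ± 0.16 and was not called.

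Of 24 tested genes for MT transcription and RNA handling, 6 (25.0%) were called lower, a share near the 19.0% of all genes. Mterf2, a factor of the mitochondrial termination factor family, had -2.38 ± 0.60, and Lrpprc, which stabilizes MT messenger RNA, had -1.32 ± 0.43 (log2 fold change ± SE). The RNA polymerase Polrmt, at -0.83 ± 0.37, and the packaging and transcription factor Tfam, at -0.29 ± 0.25, were not called. Among 9 genes for MT DNA upkeep, 1 (11.1%) was called lower and 2 (22.2%) higher, shares near the 19.0% and 13.2% of all genes. The nucleoside kinase Dguok was called lower, at -1.35 ± 0.37. The polymerase Polg and the nucleoside kinase Tk2 were called higher, at 0.61 ± 0.24 and 0.69 ± 0.22.

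Promoters of the nuclear subunits were read as a feature that the choice of genes had not used. Promoter sequence from RefSeq (build GRCr8, 250 bases before to 50 after the start) matched 69 of the 80 nuclear subunits. Searched on both strands, the NRF1 motif (GCGCA, any base, GCGC) was in 15.9% of the 69 and 4.71% of all 27457 promoters of this length, YY1 AANATGGCG in 23.2 and 3.33%, ETS CCGGAAGT in 11.6 and 4.01%, ERR TNAAGGTCA in 2.90 and 1.15%, and SP1 GGGGCGGGG in 7.25 and 10.4%. At least 1 of the 5 motifs was in 38 of the 69 (55.1%) and in 20.5% of all promoters. Of the 16 subunits with the YY1 letters 10 belong to complex I, while the NRF1 letters were in 0 of 17 matched subunits of complex IV and 4 of 12 of complex V. A match is a description of letters, not a binding site, and base composition was not matched between the sets. The printed windows show matches upstream of the start in members described above, both in subunits with a large difference (Ndufs1, Sdha) and in subunits with a smaller one (Atp5mc2, Cox8a), each read 5′ to 3′ along the gene with the motif, or its reverse complement, in capitals.
Ndufs1, YY1, chr9:72073616-72073645, minus strand: tagccgtggcCGCCATATTgacttagcggc
Sdha, NRF1, chr1:30764454-30764483, plus strand: cgtttgcagaGCGCAGGCGCaccaccactc
Sdha, NRF1, chr1:30764497-30764526, plus strand: ggagcgtgttGCGCAGGCGCagagccttcc
Uqcrc1, NRF1, chr8:118468149-118468178, plus strand: cttccttacaGCGCCTGCGCctcatactcc
Cox8a, ETS, chr1:213833625-213833654, minus strand: tcagcgccggaACTTCCGGctattgcggcc
Atp5mc2, NRF1, chr7:135678255-135678284, minus strand: ggctctagtcGCGCATGCGCagagccttct
Atp5mc3, ERR, chr3:79220702-79220731, minus strand: tgttacaaagTGACCTTGAgcgtcttcccc
These letters were present in promoters of subunits with large and with small differences: Sdha held 3 NRF1 matches at a log2 fold change of -2.17, and Atp5mc2 held 1 at -0.92.

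Of the 7 members outside the respiratory complexes, 4 were tested. Tcirg1, a subunit of the vacuolar proton pump also used by osteoclasts and immune cells, was the single member called higher. It was at 25.6, 27.8 and 112 CPM in young hearts 3, 13 and 15 and 223, 199 and 152 CPM in aged hearts 3, 4 and 7, without overlap, and young heart 15 was nearest to the aged hearts. Its log2 fold change was 1.79 ± 0.62 (SE, edgeR adjusted p = 0.112), and it was called in 2 of the 6 fits that left out 1 heart, those without young heart 15 (2.88) and without aged heart 7 (1.94), and was 1.45 to 1.77 in the other 4. Atp6ap1, an accessory protein of the same pump, was at -0.04 ± 0.19 and the phosphatase Lhpp at 0.35 ± 0.34, neither called. Ppa2, the mitochondrial pyrophosphatase, was called lower, at -1.76 ± 0.56 (SE).

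Of the 6 unnamed loci, LOC100363502, annotated like cytochrome c, and LOC100911417, annotated like the ATP synthase subunit Atp5pb, were called lower at -2.64 ± 0.66 and -2.24 ± 0.73 (SE). LOC684509 and LOC100363268 were not called, at -1.58 ± 0.67 and -0.95 ± 0.48. Reads of such loci may be shared with the gene they resemble, so their levels are uncertain. The testis form Cox6b2, at 0.572 to 1.21 CPM over all hearts, was the single nuclear subunit with a positive value, 0.26 ± 0.41 (SE), and was not called. The 9 other members had too few reads to be tested: LOC108348144, LOC679739, an entry named Ndufa10l1 with 0 reads beside the tested gene of that name, Cox7a1, Cox7b2, Cox8c, and the pump subunits Atp12a, Atp4a and Atp4b.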

How the data were processed

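RNA-Seq of polyadenylated RNA from 6 transplanted hearts was read from a single table. The authors deposited raw read counts per gene without normalization, and FPKM values, which divide the count by the listed length and library total (held within 1% for all 660 member values). That length can be shorter than the span on the chromosome: for Sdha it is 2277 bases, while the gene runs from 31545631 to 31570601. The submitters' processing notes name HISAT2 2.0.5, StringTie 1.3.3b, featureCounts 1.5.0-p3, DESeq2 1.16.1, GATK 3.7 and build Rnor_6.0, with no role or order, and the use of strand is not given in the sources used here. Counts were filtered with filterByExpr, scaled by TMM and compared, aged minus young, with edgeR 4.0.16 (glmQLFit and glmQLFTest, no covariate) in R 4.3.3 over all genes, with Benjamini-Hochberg adjustment. CPM uses the TMM-scaled library sizes. The filter keeps genes through whichever group is higher. Alternatives were DESeq2 1.42.0, limma-voom (limma 3.58.1), other scalings and filters, and leaving out hearts. The steps were tested on simulated counts. Isoform ratios added 0.5 counts and used scipy 1.17.1. Counting 3 reads corresponds to 0.122 to 0.140 CPM before TMM scaling. Each sample has its own number in the labels and was taken as the heart of a separate animal; otherwise p-values measure only the spread between these samples.

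The members and lists were chosen with earlier results of these data known. The genes named were all MT genes, catalytic or central subunits, isoform pairs, the extremes and the value nearest 0 per complex, genes called higher, untested genes and members of no complex. The result of 1 gene that this rule names is not reported here. Further genes (Ndufa9, Ndufb6, Cox7b, Cox7a2l and those of the assembly and MT RNA lists) were named after their values were seen.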

Additional observations from a re-analysis of the deposited data

How the results depend on the processing

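No paired analysis was possible because heart numbers count within each group and the labels link no aged heart to a young heart. Scaling to the cardiomyocyte markers turned the medians of the nuclear subunits (4.13), the MT genes (4.38) and complexes I to V (4.16, 4.15, 4.0, 4.03 and 4.14). It left 0 members lower (0 nuclear subunits, 0 MT genes) and 13 higher. This scaling was fitted only with aged heart 3 kept, and the part of that heart in these values was not tested. Adjusted p-values in place of unadjusted ones left 0 members lower (0 nuclear, 0 MT) and 0 higher. Leaving out each heart in turn gave 44 to 94 members lower and 0 to 1 higher. It gave 39 to 73 nuclear subunits lower and 2 to 11 MT genes lower, beside 11.5 to 24.2% of all genes called lower. The lowest member count came without young heart 13, with 47 without young heart 3, 46 without aged heart 3, 50 without aged heart 7 and the highest without young heart 15. DESeq2 called 12 MT genes lower, beside 21.2% of all genes. The fit without young heart 15 and aged heart 3 also called 12, beside 26.2% of all genes. That fit was an alternative chosen after the data were seen. Among single genes, Atp6ap1 (-0.0846 to 0.0499 over the fits without 1 heart) turned to 0.0499 without young heart 13, 0.000546 without aged heart 7 and 0.107 relative to all genes under cardiomyocyte scaling, where Cox6b2 was at -0.228 and Lhpp at -0.0111. The cause of these changes was not tested. With 3 hearts per group, exact tests cannot go below p = 0.1, and Mt-atp8, Cox6b2 and the unnamed loci rest on few reads.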
